A study of Mus musculus with 8 samples.

Results

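The cytosolic ribosomal protein genes encode the proteins that, with the ribosomal RNAs, build the small and the large subunit of the cytoplasmic ribosome. They were taken by symbol from the array annotation: every gene named Rpl or Rps followed by a number, the stalk genes named Rplp, and Rpsa, without the Rps6k kinases. Only probe sets that carry 1 gene symbol were used, and each gene is read from its brightest probe set, by the mean over all 8 arrays. This gave 51 of 18193 genes, with 107 probe sets, and 24 of the 51 had more than 1 probe set. By name, 21 belong to the small subunit and 22 to the large subunit, stalk included. A further 6 are paralogues (Rpl22l1, Rps27l, Rpl7l1, Rps4l, Rpl39l and Rpl3l), 1 is a pseudogene symbol (Rps15a-ps6) and 1, Rps19bp1, meets the rule by its letters but encodes a protein that binds Rps19 and is no ribosomal protein.

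The RNA came from blood monocytes of male C57BL/6 mice that had received green fluorescent latex microspheres of 1 µm into the circulation, which phagocytes take up. Monocytes were sorted 4 days later by Gr1 and by bead content into Gr1lo cells with beads, Gr1lo cells without beads, Gr1hi cells with beads and Gr1hi cells without beads, with 2 biological replicates, and thus 2 arrays, in each group. Gr1hi cells are the classical (Ly-6C hi) and Gr1lo cells the nonclassical (Ly-6C lo) blood monocytes. Clodronate liposomes, which kill phagocytes, were also given, but the sources do not agree on where. One text names depletion, 3 days ahead of bead injection, with no word on subset. The other names it for mice whose classical cells were to be labelled and says that nonclassical cells were labelled without it. If the second holds, subset and pretreatment cannot be told apart. Whether an array held RNA of 1 mouse or of several is not given in the sources used here.

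Ribosomal protein mRNAs are among the most abundant of any growing cell, and the proteins are needed in equal amounts, 1 copy of nearly each in every ribosome. In mammals these mRNAs start with a stretch of pyrimidines, the terminal oligopyrimidine (TOP) motif, through which growth signalling by mTOR and Larp1 sets their translation. Classical monocytes leave the bone marrow recently divided and convert in blood to the long-lived nonclassical monocytes.

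The start sites of 8 members are shown because they stand for the patterns described below: 4 that were lower in Gr1lo cells, 2 that were higher and 2 that were not called. Each line gives the 35 bases before and the 15 bases from the annotated start (RefSeq, GRCm38.p6), with the longest run of C and T that lies within 15 bases of the start in capitals (the first, where runs are equal).
Rpl22l1 (chr3:28805473-28805522, plus strand): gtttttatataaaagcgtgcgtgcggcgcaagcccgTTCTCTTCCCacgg
Rps27l (chr9:66946051-66946100, plus strand): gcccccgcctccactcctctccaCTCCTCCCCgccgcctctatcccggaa
Rpsa (chr9:120127731-120127780, plus strand): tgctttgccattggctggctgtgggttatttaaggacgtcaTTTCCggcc
Rps2 (chr17:24720028-24720077, plus strand): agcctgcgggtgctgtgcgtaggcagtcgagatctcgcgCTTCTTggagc
Rps27 (chr3:90213634-90213683, minus strand): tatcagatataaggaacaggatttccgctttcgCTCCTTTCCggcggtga
Rps25 (chr9:44407679-44407728, plus strand): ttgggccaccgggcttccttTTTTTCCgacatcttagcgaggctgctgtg
Rps24 (chr14:24490643-24490692, plus strand): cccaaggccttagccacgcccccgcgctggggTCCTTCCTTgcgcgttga
Rps7 (chr12:28635939-28635988, minus strand): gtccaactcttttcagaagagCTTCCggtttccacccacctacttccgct

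In members lower in Gr1lo cells that run was 10 bases long in Rpl22l1, 9 in Rps27l, 6 in Rps2 and 5 in Rpsa. It was 9 bases long in Rps27 and 7 in Rps25, which were higher in Gr1lo cells. In Rps24 and Rps7, which were not called, it was 9 and 5. The run of Rps27l began 12 bases before the annotated start and ended ahead of it. In Rps25 the run is cut at 15 bases before the start. Start windows of 44 of the 51 members were matched, 1 per gene, each of 300 bases. A run of at least 6 C or T within 15 bases on either side of the start was found in 25 of the 44 (56.8%), against 29% of 27025 promoters. The letters CCGGAAG, the core bound by ETS factors such as GABP, stood on either strand in 21 of 44 (47.7%) against 9.14% of all promoters. AAGATGG, the core bound by YY1, stood in 8 (18.2%) against 6.46%, and the TATA-box letters TATAAA in 6 (13.6%) against 14.2%. CCGGAAG reads CTTCCGG on the other strand and can share letters with a run of C and T. A match describes the letters and is not a site.

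All values are log2 expression values normalised by RMA, a method that fits 1 level per probe set from its probes. On this scale most members lay near the top of the array. Their median was 13.50 and 13.43 on the arrays of Gr1lo cells with beads, 13.59 and 13.58 in Gr1lo cells without beads, 13.81 and 13.81 in Gr1hi cells with beads, and 13.79 and 13.79 in Gr1hi cells without beads. The 4 Gr1lo arrays were thus all below the 4 Gr1hi arrays, and the 2 Gr1lo arrays with beads were the lowest of all. The median of all genes was also lower on the Gr1lo arrays, at 6.80 to 6.85 on the 4 Gr1lo arrays and 6.89 to 6.90 on the 4 Gr1hi arrays. A background level of 6.98, the 95th percentile of 115 genes of smell, taste and hair keratin, was exceeded by 46 members and by 8790 genes in all. The 5 members below it were Rpl39, Rpl39l, Rpl3l, Rps16 and Rps15a-ps6. Rpl39 and Rps16, at 6.82 and 3.96, are core members read from 1 probe set each. Rps25 (10.24), Rps6 (8.94) and Rpl14 (7.15) were also far dimmer than the member medians. Whether such probe sets read the main transcript was not tested, so these values need not be gene levels.

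The labels were checked against markers. The 5 classical markers measured had a mean level of 8.66 in Gr1lo cells with beads, 11.04 in Gr1lo cells without beads, 12.84 in Gr1hi cells with beads and 13.14 in Gr1hi cells without beads. The 8 nonclassical markers ran the other way, at 12.31, 12.26, 9.18 and 8.77 in the same order. Markers of other cells also moved with the groups. The 5 neutrophil markers measured of 7 had mean levels of 6.11 to 6.17 in Gr1lo cells with beads, 6.81 to 7.01 in Gr1lo cells without beads, 8.03 to 8.50 in Gr1hi cells with beads and 8.52 to 9.29 in Gr1hi cells without beads. Of the B cell markers, Cd79a, Ms4a1, Pax5 and Ebf1 were below background in every group, as were Cd3d and Cd3g of the T cell and Ncr1 and Prf1 of the NK cell markers. Others were above it. Cd79b of the B cell had 8.47 and 8.16 in Gr1lo cells with beads and 7.66 and 7.45 without, against 7.03 and 7.17 in Gr1hi cells with beads and 7.20 and 6.97 without. Klrd1 of the NK cell exceeded background in Gr1lo cells without beads alone (7.55 and 7.80, against 5.26 and 5.28 with beads) and Cd28 of the T cell in Gr1hi cells with beads alone (7.45 and 7.18, against 6.35 and 6.41 without). Cd3e of the T cell and Gzma of the NK cell were at 6.64 to 7.48 over all arrays. The poly-A control RNAs that are spiked into the samples averaged 10.45 ± 0.01, 8.98 ± 0.41, 9.65 ± 0.28 and 7.93 ± 0.26 in the same 4 groups (SD, n = 2 each), higher with beads in both subsets. They were also higher in Gr1lo than in Gr1hi cells in both bead states. Array 1 of the Gr1lo cells without beads stood apart from array 2 of its group in several markers, with C1qa of macrophages at 11.37 against 8.16, Pf4 of platelets at 11.36 against 7.70 and Fn1 of classical monocytes at 13.63 against 10.87. Its 18S rRNA probe sets were the lowest of all, at 8.58, against 9.58 to 10.64 on the other 7 arrays. Counts of calls that rest on this array are also given without it.

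The first comparison asks how the nonclassical subset differs from the classical one. Averaged over bead state, 23 of 51 members were lower in Gr1lo cells and 2 were higher (limma, Benjamini-Hochberg adjusted p under 0.05 over all genes), against 20.9% of all genes lower and 14.8% higher. The members' median difference was -0.16, with 39 of 51 below 0, and that of all genes was -0.05. Differences are Gr1lo minus Gr1hi in log2 units, so that a negative one means a lower level in Gr1lo cells. In a sorted population, less of an mRNA per cell and fewer cells that hold it cannot be told apart. Without beads 11 members were lower and 2 higher, against 13.6% and 10% of all genes. With beads 22 were lower and 1 higher, against 14.6% and 11.8%. Since 46 of the 51 members are above background, they were also set beside the genes above background. Of the 46 members above background 22 were lower and 2 higher in the average (47.8% and 4.35%), against 30.7% and 25.5% of the 8790 genes. Called in either direction they were 52.2%, against 56.2%, so the share called lay near that of genes above background. Without beads 26.1% of the 46 were called (21.7% lower, 4.35% higher), against 39.1% (20.9% and 18.2%), and with beads 45.7% (43.5% and 2.17%), against 44.8% (24.3% and 20.5%). Of the members lower without beads, 10 of 11 were among the 22 lower with beads, and those 10 are 10 of 22 of the second list. Each p-value rests on the spread between arrays within groups, pooled over the 4 groups and drawn by limma towards that of all genes. Each group has only 2 arrays.

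In 27 of 51 members every Gr1lo array lay below every Gr1hi array (52.9%, against 19.7% of all genes), and in 4 every Gr1lo array lay above (7.84%, against 13.9%). The large subunit had a median difference of -0.20 over 22 genes and the small subunit one of -0.08 over 21. These sets were not matched for level, and members near the top of the measured range had smaller differences, as given below. The neutrophil markers given above were lower in Gr1lo cells as well (median -1.43), and the poly-A controls were higher. The part of either in these counts was not tested. Counts moved with the scaling and with single arrays. With each array centred on its median 15 members were lower and 5 higher in the average and the members' median was -0.08 in place of -0.16, and with cyclic loess 16 were lower and 6 higher. The 13 calls without beads became 8 without array 1 of the Gr1hi cells without beads, and 10 without the array that stood apart, whose absence left 23 of 25 in the average. The 23 calls with beads became 14 and 13 without array 1 and array 2 of the Gr1lo cells with beads, and 13 and 12 without array 1 and array 2 of the Gr1hi cells with beads, where each fit leaves a group with 1 array that is assumed to vary like the others.

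**Figure D1:**
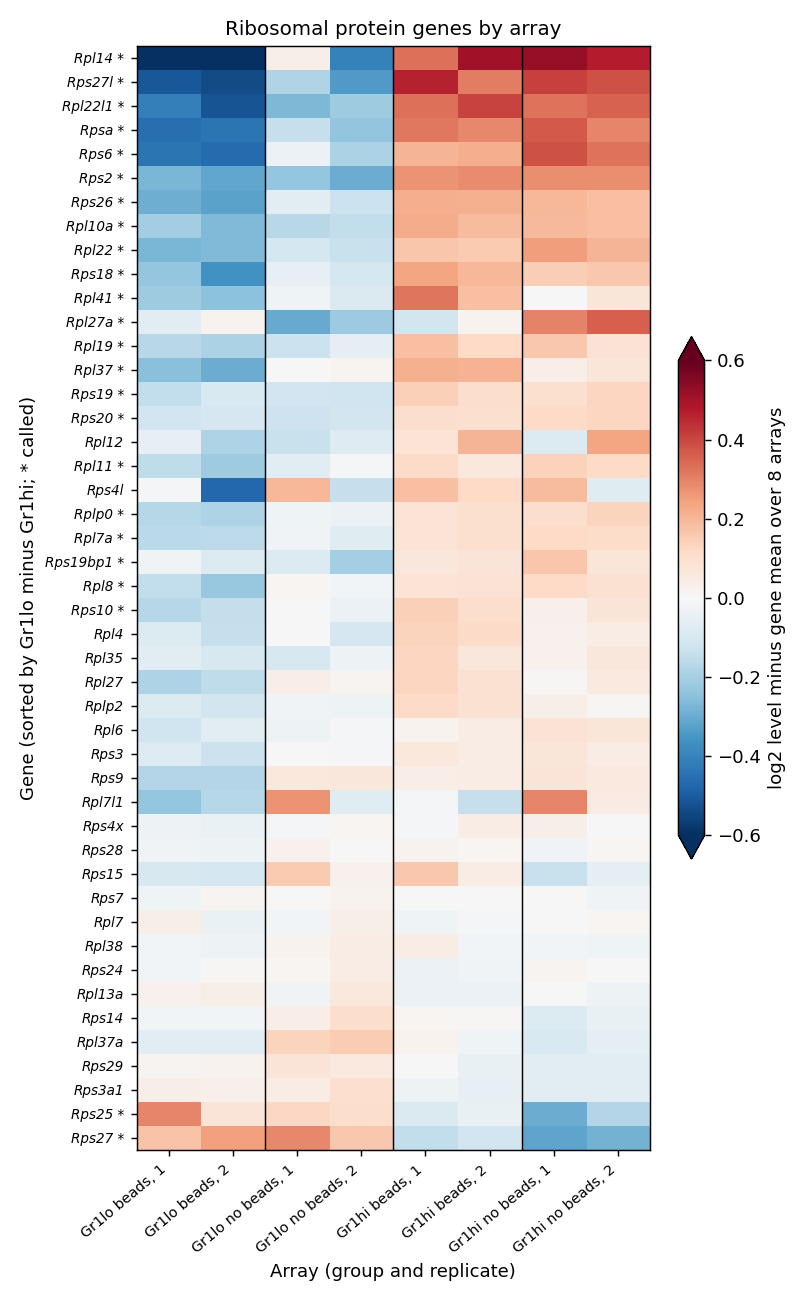
Level of the 46 members above background on each of the 8 arrays (columns, by group and replicate), drawn as log2 level minus the gene's mean over the 8 arrays, with blue below and red above that mean and the colours ending at 0.6. Rows run from the most negative to the most positive difference between Gr1lo and Gr1hi cells, a star marks a gene called in the average, and the upper rows are blue on the Gr1lo arrays and red on the Gr1hi arrays, with Rps27 and Rps25 at the bottom in the opposite colours.

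The paralogues Rpl22l1 and Rps27l had the smallest adjusted p of all members. Rpl22l1, the paralogue of the RNA-binding large subunit protein Rpl22, had levels of 11.80 and 11.70 in Gr1lo cells with beads, 11.95 and 12.00 in Gr1lo cells without beads, 12.54 and 12.62 in Gr1hi cells with beads and 12.54 and 12.57 in Gr1hi cells without beads. It differed by log2 -0.71 ± 0.06 (SE) in Gr1lo cells (0.613 times the Gr1hi level, limma adjusted p = 3.21e-05), with no overlap of the arrays. Rps27l, the paralogue of Rps27 and a p53 target gene, had levels of 10.87 and 10.84, then 11.20 and 11.03, in Gr1lo cells with and without beads, against 11.84 and 11.68, then 11.78 and 11.76, in Gr1hi cells with and without beads. Its difference was -0.78 ± 0.07 (0.582 times, adjusted p = 3.54e-05). The arrays with beads were the lowest of the Gr1lo arrays for both genes.

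The namesakes of these paralogues did not move alike. Rpl22 itself was lower in Gr1lo cells, at 13.11 ± 0.01 with beads and 13.26 ± 0.02 without, against 13.54 ± 0.01 and 13.61 ± 0.03 in Gr1hi cells with and without beads (SD, n = 2 each), a difference of -0.39 ± 0.05 (adjusted p = 0.000599). Rps27, a zinc-finger protein of the small subunit, was higher. Its levels were 9.14 and 9.21 in Gr1lo cells with beads and 9.25 and 9.13 without, against 8.82 and 8.85 in Gr1hi cells with beads and 8.65 and 8.68 without. The difference was 0.43 ± 0.06 (1.35 times, adjusted p = 0.000565), the opposite of Rps27l, and it passed the test both without beads (0.52, adjusted p = 0.00266) and with beads (0.34, adjusted p = 0.0171). The second call was lost without array 1 or 2 of the Gr1hi cells with beads (adjusted p = 0.0945 and 0.0698) or without array 2 of the Gr1lo cells with beads (0.0843). Rps27 is read here from a dim probe set, and further probe sets that carry its symbol carry others too and were left out.

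Among the small subunit proteins Rpsa, also known as the laminin receptor precursor, had the largest difference of the members above a level of 13. It stood at 13.24 and 13.26 in Gr1lo cells with beads and 13.56 and 13.46 in Gr1lo cells without beads, against 14.02 and 13.98 in Gr1hi cells with beads and 14.06 and 13.99 without. This is a difference of -0.63 ± 0.06 (0.645 times, adjusted p = 5.21e-05). Rps2, which lines the mRNA entry of the small subunit, had 13.54 and 13.50, then 13.58 and 13.52, in Gr1lo cells with and without beads, against 14.08 and 14.10, then 14.09 and 14.09, in Gr1hi cells with and without beads. Its difference of -0.56 ± 0.06 (adjusted p = 8.34e-05) was nearly the same in both bead states, at -0.57 with beads and -0.54 without.

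Rps6, the protein that S6 kinases phosphorylate, was lower and differed by -0.56 ± 0.06 (adjusted p = 0.000133), at 8.49 ± 0.01 and 8.82 ± 0.11 in Gr1lo cells with and without beads against 9.15 ± 0.01 and 9.29 ± 0.04 in Gr1hi cells. Its only other probe set with 1 symbol was at 4.30, below background. Rps26, a Diamond-Blackfan anaemia gene, differed by -0.41 (adjusted p = 0.00048), Rps18 by -0.37 (0.00116), Rps19, the gene first tied to that anaemia, by -0.24 (0.00925), Rps20 by -0.23 (0.0104) and Rps10 by -0.18 (0.0355). Rps25, which viral internal ribosome entry sites need, was higher, at 10.43 ± 0.15 and 10.36 ± 0.01 in Gr1lo cells with and without beads against 10.18 ± 0.03 and 10.01 ± 0.08 in Gr1hi cells. Its difference of 0.30 ± 0.07 had an adjusted p of 0.00887. Rps27 and Rps25 were the only members called higher in the average.

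**Figure D2:**
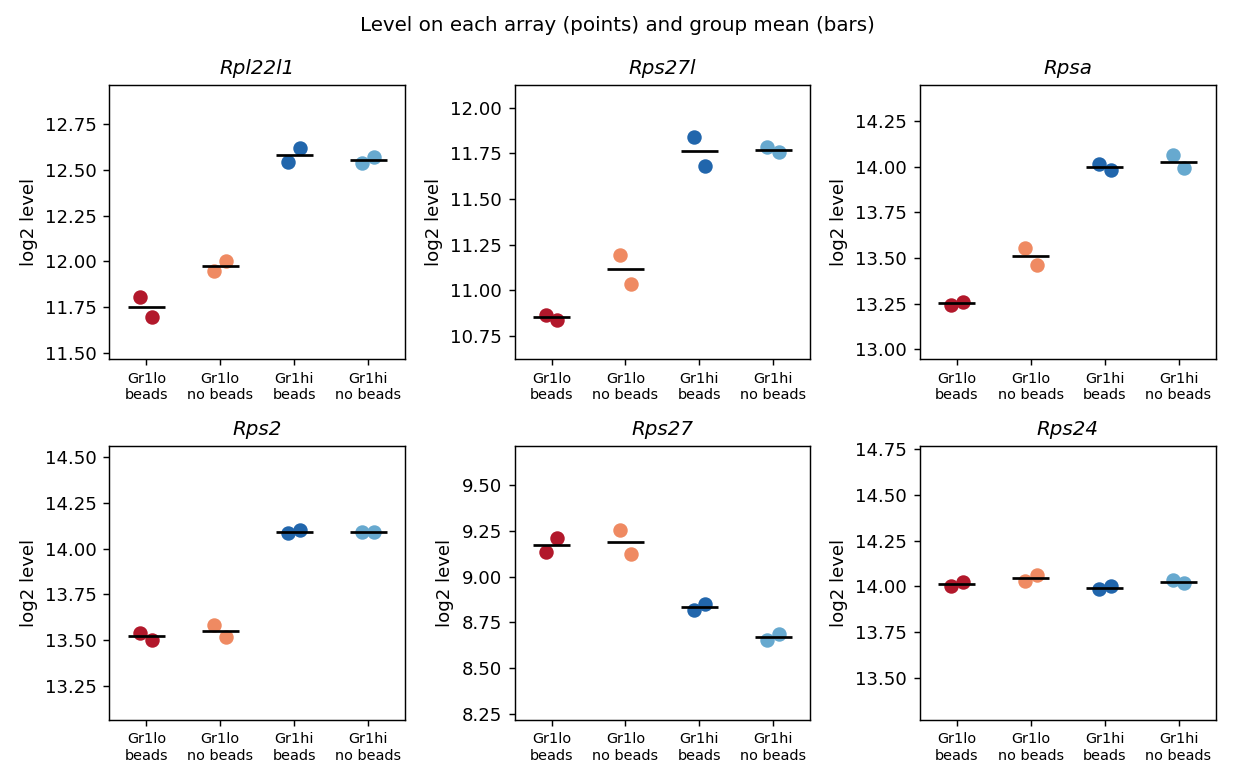
Log2 level of 6 members on each array (points) with the group mean (bar), in Gr1lo cells with and without beads and Gr1hi cells with and without beads; each panel spans 1.5 log2 units. Rpl22l1, Rps27l, Rpsa and Rps2 lie lower on all 4 Gr1lo arrays, Rps27 lies higher on them, and Rps24 is at 13.99 to 14.06 on all 8.

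In the large subunit Rpl10a differed by -0.39 (adjusted p = 0.000583), Rpl41, the smallest ribosomal protein, by -0.29 (0.0064), Rpl27a by -0.28 (0.00752), Rpl19 by -0.27 (0.00586) and Rpl37 by -0.27 (0.00474). These averages pool the bead states. Rpl41, Rpl19 and Rpl37 were called with beads (-0.48, -0.33 and -0.49) but not without (-0.09, -0.22 and -0.05). Rpl27a was called without beads (-0.59, limma adjusted p = 0.00188) but not with beads (0.02, 0.878), and its Gr1lo and Gr1hi arrays overlapped. A call in 1 bead state alone does not show that the states differ. The direct limma test of that called none of these genes (adjusted p = 0.57 for Rpl41, 0.83 for Rpl19, 0.492 for Rpl37 and 0.421 for Rpl27a). Rpl11, which with Rpl5 and 5S rRNA binds and inhibits Mdm2, differed by -0.22 (0.015), at 13.01 ± 0.04 and 13.16 ± 0.03 in Gr1lo cells with and without beads against 13.28 ± 0.04 and 13.32 ± 0.01 in Gr1hi cells. Rpl7a differed by -0.21 (0.0172) and Rpl8 by -0.19 (0.0273). Of the stalk, which recruits the elongation factors, Rplp0 differed by -0.21 ± 0.05 (0.0155), and Rplp2 had -0.12 ± 0.05 (0.116), below the threshold though its Gr1lo arrays were all under its Gr1hi arrays. The calls of Rplp0, Rpl7a, Rpl11 and Rpl8, and those of Rps10 and Rps19bp1, ended without at least 1 array: 2 arrays for Rplp0, 3 for Rpl7a, 1 for Rpl11, 7 for Rpl8, 8 for Rps10 and 7 for Rps19bp1, with adjusted p-values up to 0.119. The other 19 calls of the average held without any 1 array. Rpl14 had the largest difference of all members, -0.92 ± 0.10 (adjusted p = 0.000191), yet 3 of its 4 Gr1lo arrays were under the background level (6.53 and 6.30 with beads, 7.18 and 6.74 without), against 7.48 and 7.65 in Gr1hi cells with beads and 7.67 and 7.62 without. The size of its difference is therefore uncertain.

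Other members were not called between the subsets. Rps24, a Diamond-Blackfan anaemia gene, had levels of 14.00 and 14.03 in Gr1lo cells with beads and 14.03 and 14.06 without, against 13.99 and 14.00 in Gr1hi cells with beads and 14.04 and 14.02 without, a difference of 0.02 ± 0.05 on its brightest probe set. Rps7 differed by 0.01 ± 0.05, Rpl7 by 0.01 ± 0.06, Rps28 by -0.01 ± 0.05 and Rps4x, the X-linked small subunit protein, by -0.03 ± 0.05. Rps14, the small subunit gene lost in the human 5q- syndrome, had 0.06 ± 0.06, and Rpl13a, part of the complex that silences inflammatory mRNAs in human monocytes, had 0.05 ± 0.06. Rps3 had -0.11 ± 0.05 (adjusted p = 0.157). Of the dimmer paralogues, Rpl7l1 had -0.10 ± 0.09 and Rps4l -0.21 ± 0.12. Rps19bp1, also known as active regulator of Sirt1, was called lower, at -0.19 (0.0375). Rpl39l, a testis paralogue, passed the test too (-0.69, adjusted p = 0.000618) but lay below background in every group, at 5.63 and 5.54 in Gr1lo cells with and without beads against 6.25 and 6.30 in Gr1hi cells. The muscle paralogue Rpl3l was at 4.49 to 4.62 in all 4 groups.

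Many members, called or not, lie close to the top of the measured range. The highest gene mean on the arrays was 14.80, and the highest value of any gene was between 14.71 and 14.88 on every array. Of the 39 genes within 1 log2 unit of that mean 19 were members, among them Rps29 (14.55), Rpl41 (14.33) and Rps28 (14.30), and 34 of the 129 genes at or above 13 were members. Near the upper limit of an array, signals stop growing in proportion to the RNA. RMA gives the arrays a common distribution, so like highest values do not show such a limit. Scanner values were not among the sources used here, so saturation was not measured. Among all genes the median size of the subset difference was 0.42 at levels from 12 to 13, 0.27 from 13 to 14 and 0.09 from 14 to 15. The spread between arrays of a group shrank likewise, with a median SD of 0.07, 0.04 and 0.02. It also fell at lower levels, from 0.11 at levels from 7 to 8, so its fall is not particular to the top of the array. The 19 members nearest the top had a median size of difference of 0.10, with 6 called, all lower (31.6%, against 38.5% of the 39 genes, 9 lower and 6 higher). The other 27 members above background had 0.24, with 18 called, 16 of them lower (66.7%, against 56.3% of 8751 genes, with 59.3% lower against 30.7%).

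Bright genes that are no members were looked at in the same way. The 95 genes at or above 13 that are no members had a median difference of 0.03 and a median size of difference of 0.29, with 66 called and 35 of them lower. The 24 members between 13 and 14 had a median of -0.18, with 13 called, all lower (54.2%), against -0.11 for the 105 genes in that range, members included, of which 69.5% were called, 46 lower and 27 higher. Of the 10 members between 14 and 15, 2 were called, both lower (20%), against 33.3% of 24 genes, 4 lower and 4 higher. At these levels a difference near 0 does not show that the RNA was equal.

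**Figure D3:**
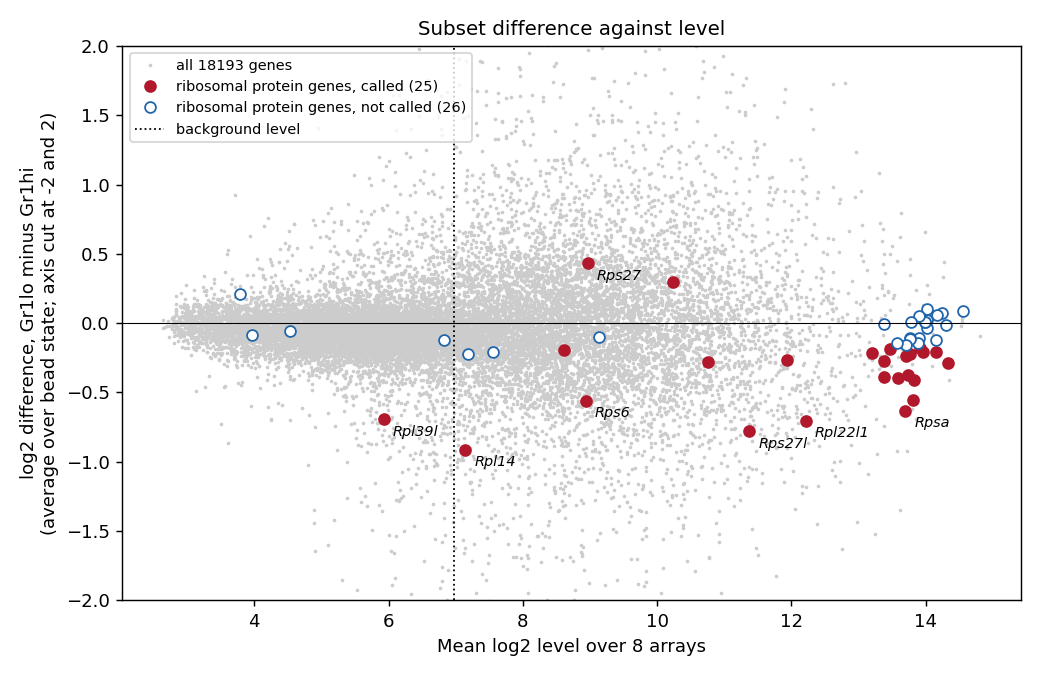
Subset difference (Gr1lo minus Gr1hi, averaged over bead state, log2) against mean level over the 8 arrays for all 18193 genes (grey) and the members, filled where called (25) and open where not (26); the dotted line is the background level of 6.98. The grey cloud narrows towards 14.80, and the called members between 13 and 14 lie below 0.

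Where a member had a dimmer probe set, that probe set showed more in some members and not in others. For 20 members at least 2 probe sets were above background, and in 12 of these the subset differences lay within 0.1 of each other. Rps27l agreed over 3 probe sets at levels from 11.06 to 11.37, with -0.78, -0.78 and -0.78. Rps18 had -0.37, -0.34 and -0.31 at 13.73, 13.64 and 13.64. In 3 members the range was over 0.3, and in each the dim probe set was the lower one. Rpl13a had 0.05 at a level of 13.91 and 0.07 at 13.40, but -0.34 at 11.56 (limma over all probe sets, adjusted p = 0.00258) and -0.99 at 10.70 (adjusted p = 2.39e-05). Rps3 had -0.11 at 13.76 and -1.18 at 8.39 (adjusted p = 3e-06), and Rps9 had -0.11 at 13.90, 0.00 at 12.80 and -0.53 at 7.46 (adjusted p = 0.00216). Rps24, at 0.02 on its brightest probe set, had -1.04 (adjusted p = 7.85e-06) on one with a mean level of 6.90, just under background, which read 6.24 to 6.48 on the Gr1lo arrays and 7.08 to 7.85 on the Gr1hi arrays. Its other probe sets had -0.015 at 13.22, 0.0025 at 13.10, 0.007 at 12.74 and -0.12 at 6.21. Further dim probe sets were mixed. Rpl41 had -0.20 at 7.13 against -0.29 at 14.33, and Rpl37a had 0.10 at 7.30 against 0.08 at 14.24. Another probe set of Rps3, at 6.83 and under background, had -0.01. Rpl22 had -0.63 at 8.35 against -0.39 at 13.38. Under background, differences were larger than on the brightest probe set for Rpl41 (-0.34 at 6.19), Rps10 (-0.29 at 6.17) and Rps20 (-0.39 at 5.86). They were smaller for Rps18 (-0.21 at 6.64), Rps6 (-0.14 at 4.30) and Rpsa (-0.11 at 3.85). Probe sets of 1 gene can also read different transcripts, which was not tested. For Rpl13a, Rps3, Rps9 and Rps24 no single direction is given here, since their probe sets differ.

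**Figure D4:**
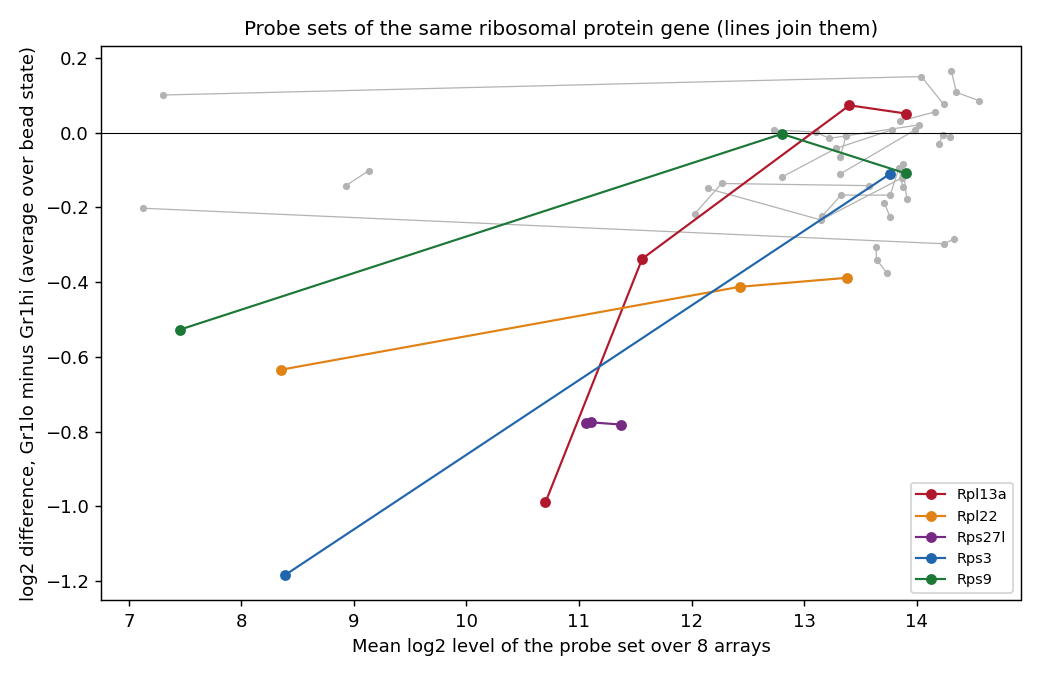
Subset difference (Gr1lo minus Gr1hi, averaged over bead state, log2) of each probe set above background against its mean log2 level, for the 20 members with at least 2 such probe sets; lines join the probe sets of a gene. Rpl13a, Rps3 and Rps9 run down to -0.99, -1.18 and -0.53 at their dim probe sets, Rpl22 stays between -0.39 and -0.63, and the 3 probe sets of Rps27l lie together at -0.78.

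The rule leaves much of the ribosome out, since ribosomal protein sequences recur in pseudogenes and many probe sets carry several symbols. There were 110 such probe sets with a symbol that meets the rule, with a median level of 13.53 and 72 at or above 13. They hold 54 symbols found on no probe set of their own, 29 of them without pseudogene names, among them Rpl3, Rpl5, Rpl10, Rplp1, Rps12, Rps13 and Rps23. None of these is reported as a gene here. Taken as probe sets, 37 of the 110 were lower in Gr1lo cells and 3 higher (33.6% lower, against 14.7% of all 45037 probe sets), with a median of -0.13. Also, the probe set names of 32 of the 51 members carry a suffix that Affymetrix gives to probes shared between transcripts, so cross-hybridisation between family members cannot be told apart from a gene's own signal.

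The second comparison asks what bead uptake goes with in each subset. In Gr1lo cells no member was called with beads against without (0 of 51, against 0.225% of all genes). Unadjusted p-values were under 0.05 for 12 members that were lower and 1 that was higher with beads, against 6.93% and 6.27% of all genes. The median difference of the members was -0.09, with 44 of 51 below 0, against 0.02 for all genes. Genes above background were also below 0, with medians of -0.088 for the 46 members and -0.033 for all 8790. Among the 39 genes within 1 log2 unit of the highest mean it was -0.04, and -0.056 for the 19 members among them. In 33 of 51 members both arrays with beads lay below both without (64.7%, against 19.4% of all genes), and in 2 both lay above (3.92%, against 23.3%). These array counts were not set beside genes above background. The shift depended on the scaling: with cyclic loess, which evens out differences along the level, the members' median was -0.00. The classical markers had a median difference of -2.97 in the same comparison. Neutrophil markers averaged 6.14 with beads against 6.91 without, but their median difference was 0.03. Mmp8 (5.99 and 5.70 against 8.52 and 7.57) and Cd177 (6.09 and 5.56 against 8.22 and 7.40) were lower with beads. Ltf, Camp and Ngp were below background on every Gr1lo array, with Camp at 6.11 and 6.15 against 5.89 and 6.00. The 6 tissue macrophage markers averaged 8.56 with beads against 8.27 without (median difference 0.73), and the 6 dendritic cell markers 6.64 against 7.45, with Cd209a at 6.84 and 6.69 with beads against 10.06 and 9.73 without. The 3′ minus 5′ signal of Actb, a measure of RNA integrity, was 0.57 with beads against 0.41 without, and that of Gapdh 0.08 against -0.06. Without array 1 of the Gr1lo cells without beads the members' median was -0.09 as well, with 0 called. The part of these markers and signals in the members' shift, and that of the poly-A controls given above, was not tested.

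The single members show how small the steps are. Rpl37 had 11.69 and 11.64 in Gr1lo cells with beads, against 11.94 and 11.95 without, a difference of -0.28 ± 0.08 (limma adjusted p = 0.216). Rps6 had 8.50 and 8.48 with beads, against 8.90 and 8.75 without (-0.34 ± 0.09, adjusted p = 0.192). Rps9 had 13.73 and 13.73 with beads, against 13.97 and 13.97 without (-0.24 ± 0.08, adjusted p = 0.261). It was the 1 member called with a variance trend over the level and robust eBayes (adjusted p = 0.0312). That call rests on 1 probe set, whose arrays without beads had an SD of 0.002 (n = 2). The other Rps9 probe sets had 0.07 at a level of 12.80 and -0.13 at 7.46 (limma over all probe sets, adjusted p = 0.8 and 0.736). Rpsa, Rps27l and Rpl22l1 had -0.26, -0.26 and -0.22 with beads, and Rpl14 had -0.55 ± 0.15 near background. Without array 2 of the Gr1lo cells without beads Rpl14 was called (-0.77, adjusted p = 0.0272). Rpl27a, a large subunit protein, went the other way, at 10.69 and 10.78 with beads against 10.45 and 10.53 without (0.24 ± 0.09, adjusted p = 0.315).

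In Gr1hi cells the members were spread on both sides of 0. None was called (0 of 51, against 0.247% of all genes), and 2 had an unadjusted p under 0.05, against 9.93% of all genes. The median difference was 0.01, with 24 of 51 below 0, and that of all genes was -0.02. Above background it was 0.0145 for the 46 members and -0.036 for all 8790 genes. Rpl27a had 10.64 and 10.77 in Gr1hi cells with beads, against 11.05 and 11.11 without (-0.37 ± 0.09, adjusted p = 0.201), the largest step in this subset. Rpl41 had 14.65 and 14.51 with beads, against 14.33 and 14.40 without (0.22 ± 0.09, adjusted p = 0.458). Rps2 was at 14.08 and 14.10 with beads, against 14.09 and 14.09 without. The classical markers had a median difference of -0.34 in this comparison.

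**Figure D5:**
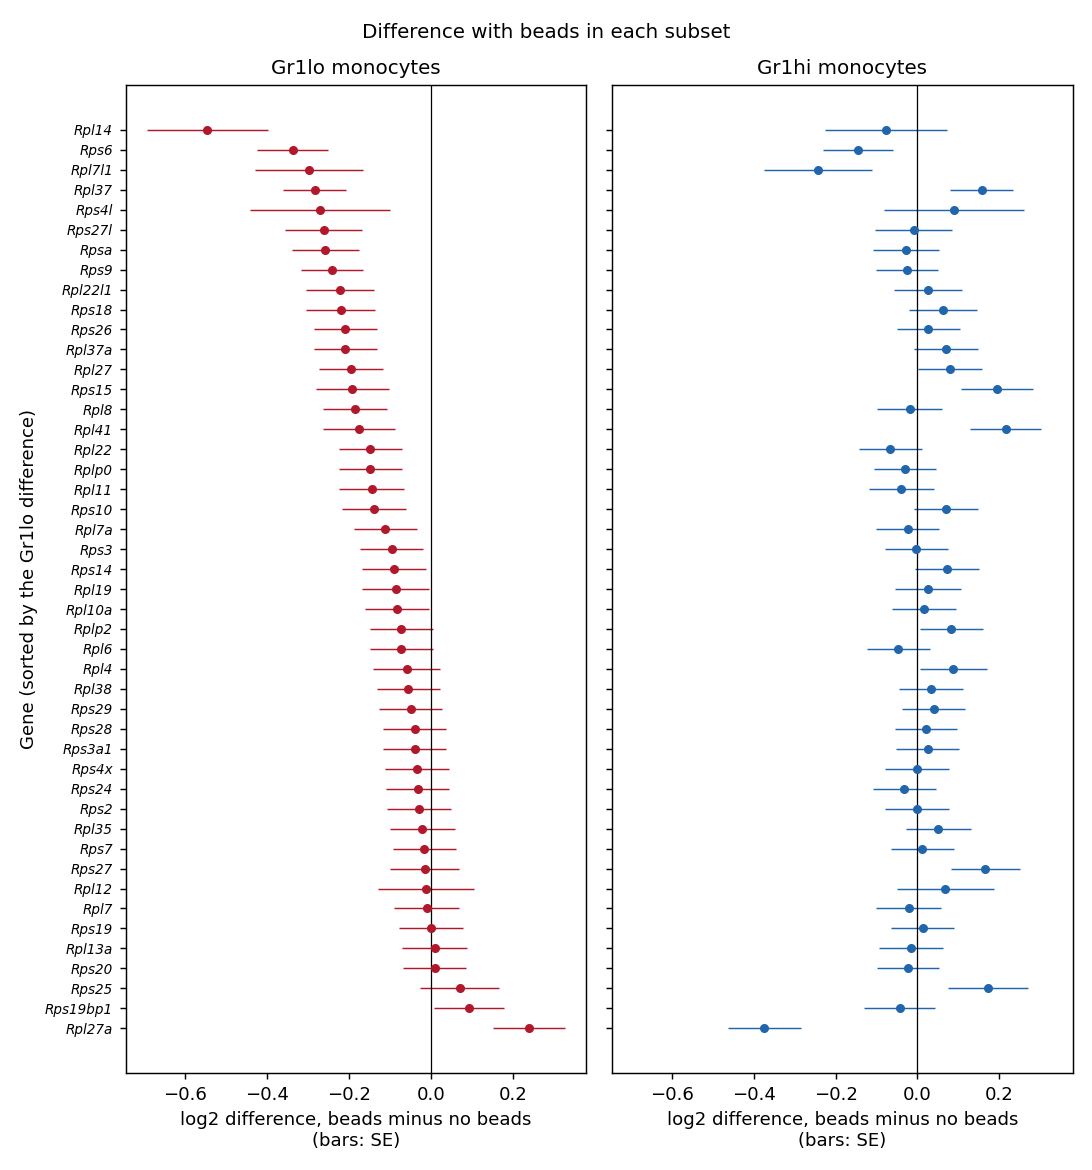
Difference with beads minus without beads (log2, points) with its standard error (bars) for the 46 members above background, in Gr1lo cells (left) and Gr1hi cells (right), sorted by the Gr1lo difference. In Gr1lo cells 41 of 46 points lie below 0, in Gr1hi cells 21 of 46, and Rpl27a is the highest point on the left and the lowest on the right.

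The difference between the bead effects was tested directly. No member was called (0 of 51, against 0.044% of all genes), and 7 had an unadjusted p under 0.05, against 7.84%. The median of the members was -0.10, and that of all genes 0.03. Above background it was -0.10 for the 46 members and -0.003 for all 8790 genes. For the 39 genes within 1 log2 unit of the highest mean it was -0.061, and -0.0895 for the 19 members among them. Rpl27a had the largest value, 0.61 ± 0.13 (unadjusted p = 0.00103, limma adjusted p = 0.421), and Rpl37 had -0.44 ± 0.11 (unadjusted p = 0.00326, adjusted p = 0.492). In 13 of the 46 members above background both arrays with beads lay above those without in Gr1hi cells and below them in Gr1lo cells, against 3.08% of genes above background, and in 1, Rpl27a, it was the reverse, against 3.19%. In simulated data 7.6% of changes of 0.5 log2 units and 86.8% of changes of 1 were recovered in this test. The changed genes were drawn from all levels, so these shares do not describe the members. The lack of calls does not show that the bead effects were equal.

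Other genes of the translation machinery were counted by lists. Of 19 initiation factors measured, 14 were lower in Gr1lo cells and 2 higher in the average over bead state (73.7% and 10.5%, against the 20.9% and 14.8% of all genes and the 30.7% and 25.5% of genes above background given above). Eif3i, a subunit of the scaffold eIF3, had -0.79 ± 0.06 (adjusted p = 1.84e-05), and Eif3l of the same complex had -0.61. The helicase Eif4a1 had -0.60 ± 0.06 (adjusted p = 0.00012), at 11.76 in Gr1lo against 12.36 in Gr1hi cells, while its paralogue Eif4a2 was higher by 0.85 ± 0.09 (adjusted p = 0.000106), at 12.42 against 11.56. Eif5, the GTPase activator of initiation, was higher by 0.40.

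Of 33 ribosome biogenesis genes, 17 were lower and 3 higher (51.5% and 9.09%). Nhp2, of the box H/ACA particles that guide pseudouridylation of rRNA, had -0.998 ± 0.079 (adjusted p = 2.39e-05), at 9.83 in Gr1lo against 10.83 in Gr1hi cells. Wdr12, of the PeBoW complex for the large subunit, had -0.95 at a level near background. Fbl, the rRNA methyltransferase fibrillarin, had -0.64 and Bysl, needed for the small subunit, -0.52. Nop16, Nop56 and Nop10 were higher by 0.44, 0.38 and 0.38. Of 16 other genes with TOP mRNAs or with ribosomal proteins under other names, 7 were lower and 1 higher (43.8% and 6.25%). Eef1d, Npm1, Btf3, Eef2 and Eef1b2 had -0.50, -0.49, -0.48, -0.39 and -0.30, and Eif4b had 0.19. Of 19 genes of growth control, 4 were lower and 3 higher (21.1% and 15.8%), near the shares of all genes, with Rragc, a Rag GTPase that recruits mTOR to lysosomes, at -0.73 ± 0.08 (adjusted p = 0.000196), Larp1 at -0.38, and Eif4ebp1 at 0.32. In neither bead comparison, nor in the difference between them, was a gene of these lists called.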

How the data were processed

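The authors deposited log2 expression values of 45101 probe sets on 8 Affymetrix mouse GeneChip arrays, normalised by RMA and compared with limma per the submitters' processing notes. Their versions and chip definition were not given in the sources used here; scans were not reprocessed. Groups came from the labels. Probe sets with 1 symbol (34945) were kept, and those with several (932), with none listed (9160) or for controls (64) were left out of gene tests. Of the kept, 34741 matched RefSeq (GRCm38.p6) by Entrez number, and 0 symbols changed.

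Means of the 4 groups were fitted to all 18193 genes with limma 3.58.1 in R 4.3.3 (lmFit, eBayes with 4.48 prior and 4 residual degrees of freedom), two-sided, with Benjamini-Hochberg adjustment and calls at an adjusted p under 0.05. SE is the moderated standard error, SD that between arrays. Files carried no counts, and 2 arrays per group limit precision. Tested on simulated data with 200 of 18193 genes changed, changes of 0.5 log2 units were recovered in 91.6% for the subset average, 48.6% without beads, 50.8% with beads, 49% for beads in Gr1lo and 49.6% in Gr1hi cells. The changed genes were drawn from all levels, and far more genes were called in the real subset comparisons (35.6% in the average). These shares therefore do not describe the subset tests of the members, and those for beads hold for genes of all levels, not for the members.

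The members, gene lists and tests were chosen with earlier results of these data known. Genes named were the 10 smallest p among called members and the 4 largest differences each way per comparison, members fixed by role or as paralogue pairs, the brightest and dimmest, and 4 per list. Other members were named after their values were seen, Rps9 and Rps24 among them. Alternatives were the probe set choice, a background filter, the arrays fitted, eBayes settings, array weights, centring, loess, leaving out bright members or those that are paralogues, pseudogene symbols or Rps19bp1, a replicate block and leaving out each array. Deviations of same-numbered arrays correlated at 0.27 between the bead states of Gr1lo and 0.36 of Gr1hi cells, but at -0.02 to 0.09 between subsets; as not every pair was over 0.1, the numbers were not taken to pair the arrays. Tables were made with pandas 2.3.3 in Python 3.11.15.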

Additional observations from a re-analysis of the deposited data

Results flagged for a closer look

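In 14 of the 46 members above background both arrays with beads lay above both arrays without beads in one subset and below them in the other. In 13 the arrays with beads were lower in Gr1lo cells and higher in Gr1hi cells, which is 28.3% of the 46 members above background against 3.08% of 8790 genes above background. The reverse was seen in Rpl27a alone of the 46 (2.17% against 3.19%). Rpl39, below background, followed the 13. The difference between the bead effects, Gr1lo minus Gr1hi, was -0.44 for Rpl37, -0.39 for Rpl41 and -0.39 for Rps15, at -0.4415, -0.392 and -0.387 before rounding. It was -0.284 for Rps18, -0.2795 for Rpl37a, -0.275 for Rpl27, -0.236 for Rps26 and -0.209 for Rps10. For Rps14 it was -0.163 and for Rplp2 -0.156, and for Rps29, Rps3a1 and Rps28, 3 of the brightest members, -0.0895, -0.0655 and -0.061. Rpl27a had 0.613. None of these differences passed the limma test after adjustment, and the members share their 8 arrays, so the 14 are not independent observations.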

How the results depend on the processing

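The direction of the members' median and, within 1.5 times, the number called held in most alternatives for the 3 subset comparisons, and the exceptions follow. The cause of each change was not tested unless named. With the mean of a gene's probe sets the subset median was -0.121 without beads, -0.245 with beads and -0.192 in the average, against -0.085, -0.217 and -0.159. With the second-brightest probe set, which only 24 members have, 4, 6 and 6 were called, with medians of -0.0135, -0.160 and -0.103, the bead median in Gr1hi cells was 0.042, and Rps6 without beads turned to 0.0505 (adjusted p = 0.754) at a probe set below background. Fitting only the arrays compared called 15 with beads (14 lower, 1 higher). With a trend and robust eBayes 25 were called without beads (18 lower, 7 higher) and 1, Rps9, for beads in Gr1lo cells. Centring arrays on their median gave 15 called and a median of -0.154 with beads, 0.010 without beads (8 lower and 3 higher, against 11 and 2), -0.080 in the average, and -0.132 for the difference between bead effects. Cyclic loess gave 15 (13 lower, 2 higher) and -0.103 with beads, -0.0284 without beads, -0.0774 in the average, -0.000435 for beads in Gr1lo cells and -0.0437 for the difference between bead effects. Without the 19 members nearest the top of the range the subset medians were -0.141, -0.253 and -0.214, and that for beads in Gr1lo cells -0.119. Chosen after the data were seen, the 110 several-symbol probe sets gave 21, 35 and 40 called, with medians of -0.157 with beads and -0.129 in the average, and leaving out members under the background moved no result.

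Leaving out 1 array at a time gave 8 to 13 calls without beads (median -0.119 to -0.057), 12 to 20 with beads (-0.218 to -0.2045) and 20 to 23 in the average (-0.185 to -0.149). It gave 0 calls for beads in Gr1hi cells (-0.0015 to 0.0125), 0 to 1 in Gr1lo cells (-0.0915 to -0.076) and 0 for the difference between bead effects (-0.123 to -0.0905). With the replicate number as a block, where the numbers paired arrays within a subset at most, 14, 24 and 25 members were called between the subsets and 0 in the bead comparisons and their difference. Signals near 14.80 may limit what the array can show for the 19 brightest members, but saturation was not measured.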
